A study of Homo sapiens with 6 samples.

Results

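The clustered protocadherin genes lie side by side on chromosome 5 as an alpha, a beta and a gamma cluster. The peaks described here are all those that overlap chr5:140165000-140893000 (hg19), the span of the 3 clusters, in 4 peak lists from RNA immunoprecipitation and sequencing (RIP-seq) with an antibody against SF3B4. There were 26 such peaks among the 181131 of the series. RIP-1 had 3 in its mRNA list and 0 in its non-exon list, and RIP-2 had 7 in its mRNA list and 16 in its non-exon list. The members were chosen among the called peaks by position alone, so no score or enrichment beyond the peak call itself entered the choice.

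The study used wild-type HEK293T, a human line of embryonic kidney origin with the SV40 large T antigen, and all groups share this background without any treatment named in the labels. Each of the RIP experiments, RIP-1 and RIP-2, had an anti-SF3B4 library, an IgG library and an input library, which gives 3 groups of 2 libraries. Values of the IgG and input libraries are seen here only as far as the authors' peak calls used them, and the sources do not say which was the control. The authors split each call between files labelled mRNA and NotExon (called mRNA list and non-exon list from here on), without defining the names. Each list is 1 call of 1 experiment, so no value below has a replicate error, the depth behind it is unknown, and comparisons of lists are descriptions.

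Clustered protocadherins are cell adhesion proteins of the cadherin superfamily, best known in neurons, where each cell displays its own combination of them and uses it to tell its own branches from those of other cells. Each alpha and gamma gene has a large variable exon with its own promoter, and that exon is spliced to short constant exons shared by the whole cluster and placed at its downstream end. The beta genes have no constant exons, and nearly all of their coding sequence lies in a large exon each. SF3B4 belongs to the SF3b complex of the U2 snRNP, which recognises the branch site when introns are removed. The RefSeq table of GRCh38.p14 lists 53 protein-coding genes of the family, 15 alpha, 16 beta and 22 gamma, in that order along the chromosome. Between the beta and gamma clusters it lists SLC25A2, a mitochondrial ornithine carrier, and TAF7, a subunit of the general transcription factor TFIID. ZMAT2 precedes the alpha cluster, and DIAPH1, an actin-nucleating formin, follows the gamma cluster.

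That table is of another build than the peaks, so no peak was assigned to a gene, and whether a peak lies in a variable or a constant exon was not checked. The span was divided 240 kb and 500 kb after its start into an alpha, a beta and a gamma part, with limits set by hand in the gaps between the clusters as known from textbooks. The gamma part so defined also takes in the stretch where SLC25A2 and TAF7 are expected. Variable exons of a cluster resemble each other in sequence, and the sources do not say how reads that fit several of them were placed.

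Peaks of RIP-1 and RIP-2 lay in different stretches of the span. Overlap between the experiments was also low over the whole lists, at 6.41% of RIP-1 and 6.91% of RIP-2 mRNA-list peaks. For RIP-2 non-exon peaks it was 3.63%, so a lack of overlap among so few peaks does not set the span apart. In RIP-1 all 3 peaks lay in the last 37.3 kb, at the downstream end of the gamma part, and the alpha and beta parts held 0 peaks. In RIP-2 the peaks ran through all parts, with 9 in the alpha, 8 in the beta and 6 in the gamma part, but ended before the stretch that RIP-1 marked. Between the last RIP-2 peak and the first RIP-1 peak lay 116 kb without a peak in any list.

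**Figure D1:**
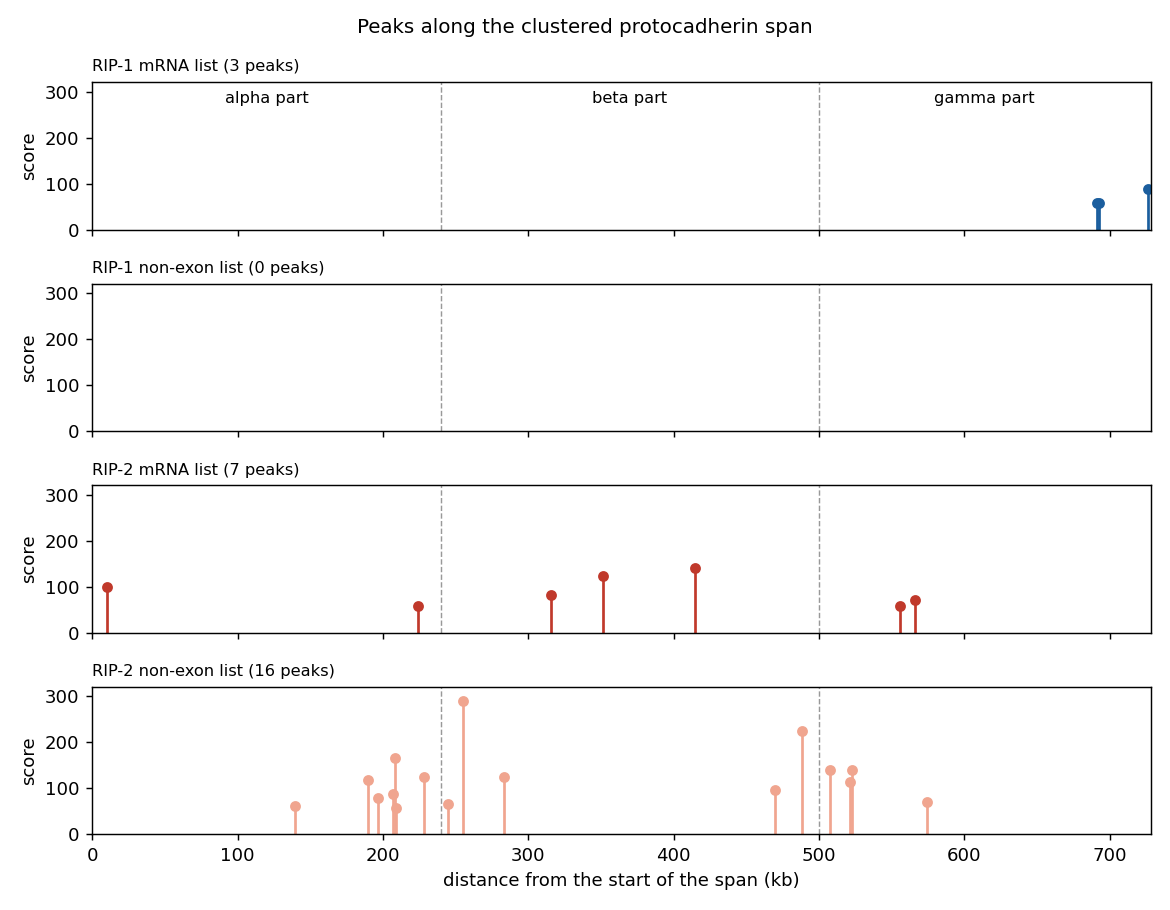
Position of each peak's centre in kb from the start of the span (x axis) against the peak's score (y axis), with 1 panel per list and dashed lines at the limits of the alpha, beta and gamma parts. The 3 RIP-1 peaks stand at the right end, starting with the one 691 kb from the start, where the RIP-2 panels are empty, and the RIP-1 non-exon panel holds 0 peaks.

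The score of a peak is the authors' own value and follows the scale of MACS, the peak caller whose prefix the peak names carry, on which a score is the negative log10 of a p-value multiplied by 10. The first RIP-1 peak ran from 140855697 to 140856382 and scored 56.9. The second followed 0.467 kb later, from 140856849 to 140857621, and scored 57.4. The third ran from 140890513 to 140891419, 1.58 kb before the end of the span, and scored 87.9. The first pair was weak within its list, where 16.2% and 17.5% of peaks scored lower, while the third stood above 57.1% of the list. The constant exons of the gamma cluster also lie at its downstream end, but whether the third peak covers one of them was not checked.

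In the alpha part, the RIP-2 mRNA list had a peak from 140174849 to 140175237, 9.85 kb after the start of the span, with a score of 99.2. A second, from 140389211 to 140389236, was 25 bp long and scored 58.7, and only 2.10% of the list was shorter. These lie near opposite ends of the alpha part, the first close to its upstream edge and the second 224 kb after it.

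The beta part held the 2 strongest mRNA-list peaks of the span. The RIP-2 peak from 140480043 to 140480788 scored 82.8. The next, from 140516055 to 140516309, scored 123. The third, from 140579347 to 140580076, scored 140 and ranked 1508 of the 10280 peaks of the list. These 3 segments lay within 100.03 kb, inside a stretch of 186 kb with 0 non-exon peaks in RIP-2. RIP-1 had 0 peaks of either list there. Such empty stretches were not particular to the beta part. RIP-2 also had 0 peaks of either list over 129 kb of the alpha part and over the last 153 kb of the span.

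In the gamma part, the RIP-2 mRNA list had a peak from 140720762 to 140721061 with a score of 57.3 and one from 140730453 to 140730935 with a score of 70.9. Both scored lower than all 3 of the beta part and below the median of their list, 79.6. They stood 135 and 125 kb from the nearest RIP-1 mRNA-list peak. In the gamma part the mRNA-list peaks thus lay nearer the upstream side in RIP-2 and at the downstream end in RIP-1. This contrast rests on 2 and 3 peaks of calls of unknown depth. Over the whole list only 6.91% of RIP-2 mRNA-list peaks overlapped one of RIP-1, so it shows no difference in binding.

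All 10 mRNA-list peaks of the span were on the plus strand, which is the strand of the family. That was 3 of 3 in RIP-1 (100%, 95% Wilson interval 43.9 to 100) against 51.2% of the whole list, and 7 of 7 in RIP-2 (100%, 64.6 to 100) against 51.8%. In the flank of equal length before the span, 9 of 14 RIP-1 and 4 of 4 RIP-2 mRNA-list peaks were also on the plus strand, and in the flank after it 0 of 5 and 1 of 3. An all-plus count in RIP-2 was thus also found just before the span. The sources do not say whether the strand was read from the RNA or taken from a gene annotation. Wilson intervals here take each peak as independent of the others and reflect counting error alone.

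The mRNA-list segments of the span were long. The 3 of RIP-1 were 685, 772 and 906 bp, against a list median of 216 bp, and 3 of 3 were longer than that median, as were 49.9% of the list. The 7 of RIP-2 had a median of 388 bp and a longest of 745 bp, against a list median of 160 bp, and 6 of 7 were longer than it, as were 49.9% of the list. The exception was the 25 bp segment of the alpha part. By score, 1 of 3 in RIP-1 and 4 of 7 in RIP-2 exceeded the median of their list, against 50% of each whole list.

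**Figure D2:**
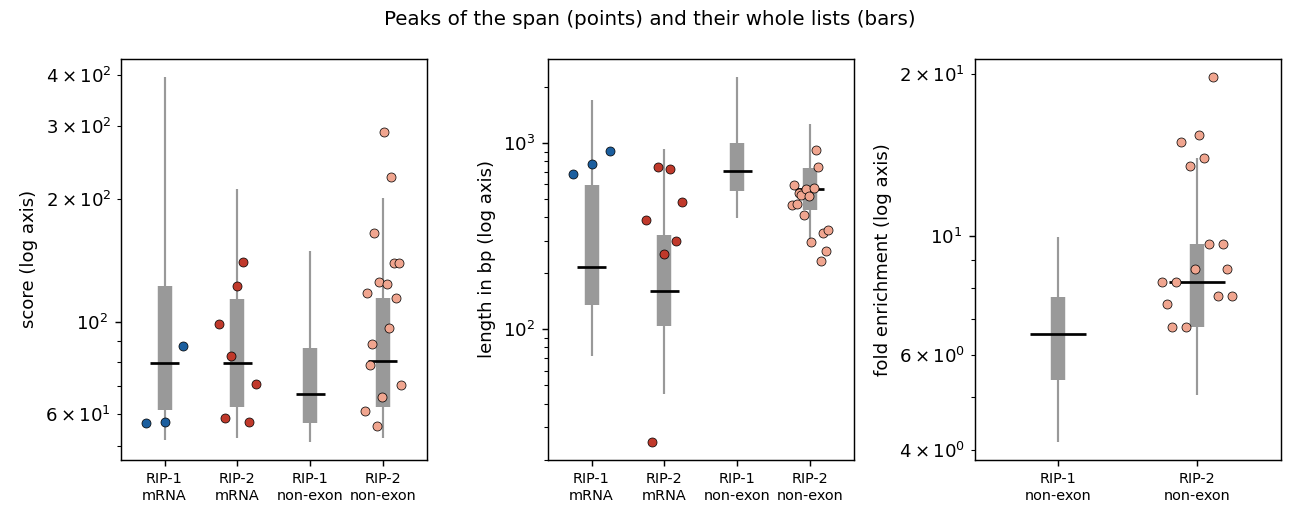
Score, length in bp and fold enrichment (log axes) of the peaks of the span as points, beside their whole lists, with a thin line from the 5th to the 95th percentile, a thick bar for the interquartile range and a black line for the median. The 3 RIP-1 mRNA-list segments, 685 to 906 bp long, lie above the bar for length, and the RIP-1 non-exon columns carry no point.

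The non-exon list gives, beside the score, a fold enrichment over the control and a percentage for the false discovery rate (FDR), both from the authors' call. The 16 RIP-2 non-exon peaks had fold enrichments from 6.75 to 19.8 with a median of 8.67, against 8.19 in the whole list, and 9 of 16 exceeded the list median, as did 46% of the list. Their scores ran from 56.1 to 290 with a median of 116, against 80.6, and 11 of 16 exceeded the list median, as did 50% of the list. They were slightly short, with a median of 495 bp against 564 bp, and 5 of 16 were longer than the list median, against 50% of the list.

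By fold enrichment these 16 comprised 5 of 13.5 or more and 11 of 9.64 or less. The highest, 19.8, belonged to the peak from 140652933 to 140653677 near the end of the beta part, which scored 225, and 99.4% of the list had a lower fold enrichment. The peak from 140419609 to 140419901 had a fold enrichment of 15.4 and the highest score of the span, 290. The peak from 140372748 to 140373275 had 14.9 and a score of 165, and the peak from 140447826 to 140448397 had 13.97 and a score of 124. The fifth, from 140393145 to 140393712, had 13.5 and a score of 125. Of these 5, 3 lay in the beta part and 2 in the alpha part, and the 4 non-exon peaks of the gamma part had fold enrichments of 7.71 to 9.64.

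The 16 non-exon peaks included 2 crowded stretches, whose limits were set after the positions were seen. In the first, 6 of the 7 alpha-part peaks lay from 190 to 229 kb after the start, and 3 of these followed each other with gaps of 0.831 and 0.742 kb. That group ran from 140371380 to 140374425 and held fold enrichments of 8.19, 14.9 and 6.75. In the second, 5 peaks lay from 469 to 523 kb after the start, at the end of the beta part and the beginning of the gamma part. The widest non-exon peak of the span, 924 bp from 140634410 to 140635333 with a fold enrichment of 9.64, opened this second stretch. The remaining 5 were 1 at 139 kb, 3 between 245 and 284 kb and 1 at 574 kb after the start.

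Few of these values are distinct from those of other peaks. The 2 peaks from 140672269 to 140672500 and from 140687566 to 140687828 had the same score of 139.12, which 896 peaks of the RIP-2 non-exon list carried. The score of the last RIP-2 peak, from 140739255 to 140739594, was 70.43 and was carried by 1593 peaks. In all, 15 of the 16 had a score that recurred in the list, as did 95.8% of its 134094 peaks. An FDR of 100% stood beside 10 of the 16, against 41.6% of the list, and the other 6 had FDRs of 72.3% to 99.3%. In this list each peak at 100% had a score of 89.5 or more, and the lowest FDR of any peak was 68.3%. Among the 16 the FDR rose with the score, from 72.3% at a score of 56.1 to 99.3% at 88.4 and 100% above that. The 5 peaks with the highest fold enrichments all stood at 100%. A higher score thus came with a worse FDR, so the FDR lends no weight to the peaks with the highest scores or fold enrichments. Why it runs this way was not tested.

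In RIP-2 the span was denser than its list in mRNA-list peaks and sparser in non-exon peaks. Its 7 mRNA-list peaks amount to 9.62 per Mb, 2.81 times the 3.42 of the whole list, and its 16 non-exon peaks to 22.0 per Mb, 0.493 times the 44.6 of the whole list. In RIP-1 the 3 mRNA-list peaks amount to 4.12 per Mb, 1.13 times the 3.64 of the whole list. The 0 non-exon peaks of RIP-1 stand against 8.57 per Mb in the whole list, a density that would put 6.24 in the span. With 3 taken as the upper limit of a count of 0, it allows up to 4.12 per Mb, by counting error only. Segments of the mRNA lists covered 0.325% of the span in RIP-1 against 0.176% over all chromosomes, and 0.401% in RIP-2 against 0.0992%.

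**Figure D3:**
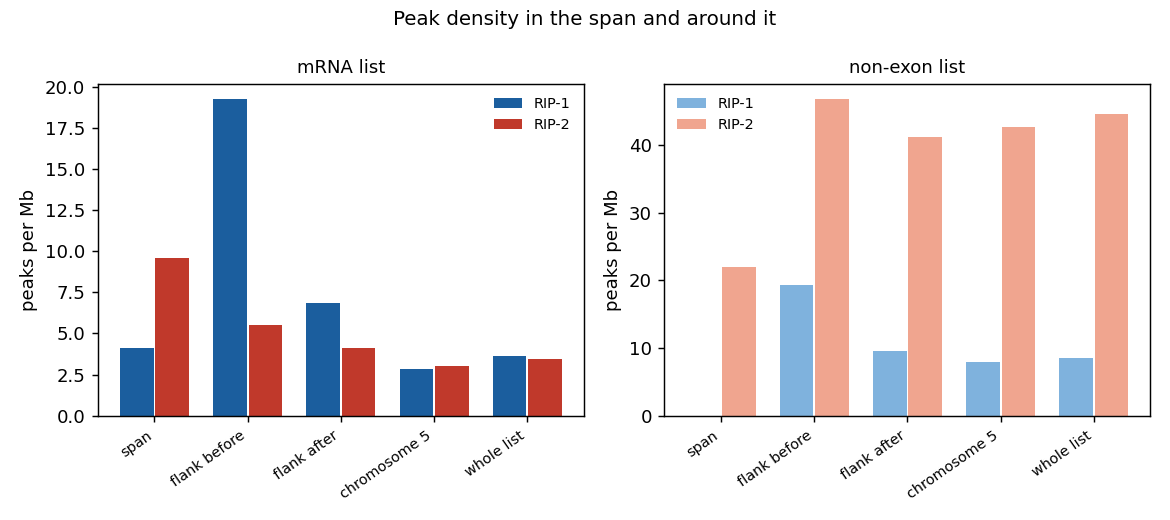
Peaks per Mb (y axis, from 0) of the mRNA lists and of the non-exon lists in the span, in the flanks of equal length before and after it, on chromosome 5 and in the whole list, with 1 bar per experiment and no error bars since each list is a single call. The span has the highest RIP-2 bar among the areas for the mRNA list, 9.62 per Mb, and the lowest bars for the non-exon list.

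The flanks had other counts. The 728 kb before the span held 14 mRNA-list and 14 non-exon peaks in RIP-1 and 4 and 34 in RIP-2, and the 728 kb after it held 5 and 7 in RIP-1 and 3 and 30 in RIP-2. Thus RIP-1 had more mRNA-list peaks in either flank than in the span, and RIP-2 fewer. Outside the edges, the nearest RIP-2 peak before the span ended 32.3 kb away (non-exon, score 309), and the nearest RIP-1 peak after it began 15.3 kb away (mRNA list, minus strand, score 124). The first members inside the edges lay 9.85 kb from the start and 1.58 kb from the end.

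Peaks of the mRNA list made up a larger share within the span than over the whole call in both experiments, though a minority in RIP-2. In RIP-1 they were 3 of 3 (100%, 95% Wilson interval 43.9 to 100), against 29.8% of the whole call. In RIP-2 they were 7 of 23 (30.4%, 15.6 to 50.9), against 7.12% of the whole call and 6.59% on chromosome 5. The flanks gave 10.5% (4.17 to 24.1) before and 9.09% (3.14 to 23.6) after the span in RIP-2, and 50% (32.6 to 67.4) and 41.7% (19.3 to 68.0) in RIP-1. In each experiment the interval of the span overlapped those of both flanks. The peak numbers ran without a gap from 27357 to 27359 in RIP-1 and from 104575 to 104597 in RIP-2. No numbered peak of either call is therefore missing between the first and the last member. The rest of the span, which in RIP-1 includes the 691 kb before the first member, was not checked this way.

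Windows of the length of the span, laid end to end over all chromosomes, show how often such counts occur. Of 3939 windows with any peak, 155 had 0 RIP-1 non-exon peaks (3.94%), and the median was 6. At least 3 RIP-1 mRNA-list peaks stood in 1466 windows, with a median of 9 non-exon peaks, and 4 of those 1466, the span among them, had 0. At least 7 RIP-2 mRNA-list peaks stood in 457 windows, with a median of 39 non-exon peaks (interquartile range 31 to 48), and 9 of those 457, the span among them, had 16 or fewer. Few windows therefore joined as many mRNA-list peaks with as few non-exon peaks, in either experiment. Each RIP-2 count alone was more common. Of all 3939 windows, 530 (13.5%) had 16 or fewer RIP-2 non-exon peaks, and 11.6% had 7 or more RIP-2 mRNA-list peaks. The limits of these counts are the values of the span itself, so they rank it and test nothing.

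**Figure D4:**
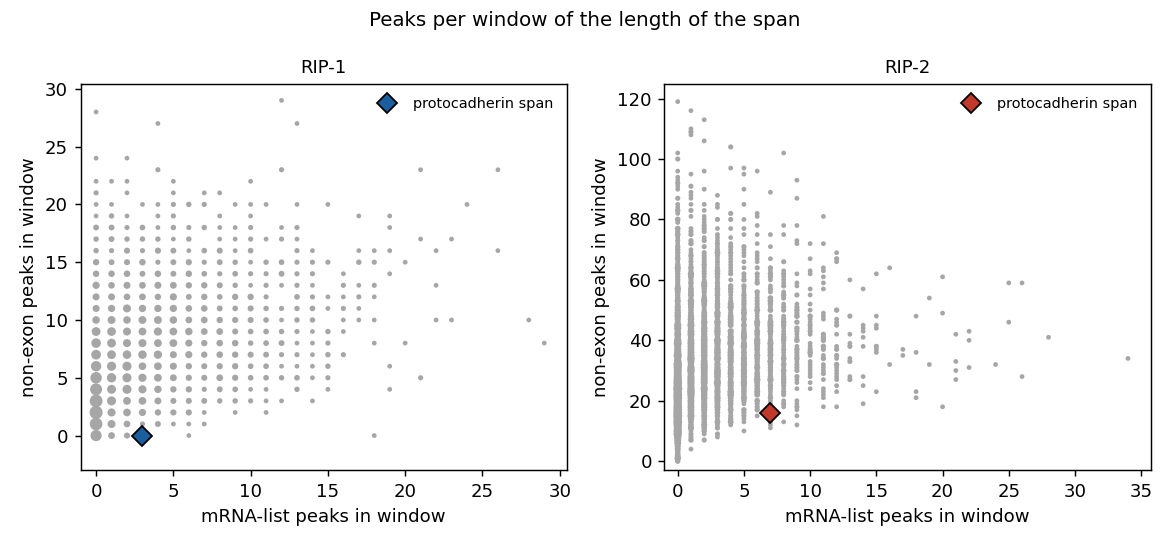
Number of mRNA-list peaks (x axis) against number of non-exon peaks (y axis) in 3939 windows of 728 kb, with larger grey dots for more windows and a diamond for the protocadherin span. The diamond stands at 3 and 0 in RIP-1 and at 7 and 16 in RIP-2, at the lower edge of the cloud in both panels.

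Most mRNA-list peaks of the span stood farther from non-exon peaks of their own experiment than the median of their list. In RIP-2 the median distance to the nearest non-exon peak was 31.6 kb (3.91 to 67.7), against 6.80 kb in the whole list (interquartile range 2.92 to 14.7). The closest was the 25 bp segment of the alpha part, and the farthest was the beta-part segment that scored 123. The closest, and a gamma-part segment at 8.32 kb, lay inside that interquartile range. In RIP-1 the 3 distances ran from 33.6 to 68.7 kb with a median of 67.4 kb, against 19.6 kb in the list (7.21 to 45.7). The shortest, 33.6 kb, lay inside the range of the list. All of these neighbours lay outside the span, since RIP-1 had 0 non-exon peaks in it.

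The design of the series compares the repeated experiments to exclude non-specific reads, and no peak of the span was found in both. Of the RIP-1 mRNA-list peaks, 0 of 3 overlapped a RIP-2 mRNA-list peak (1 bp or more, same strand), against 6.41% of the whole list. In the other direction it was 0 of 7, against 6.91%, and a count of 0 of 7 allows a share of up to 42.9%. Of the RIP-2 non-exon peaks 0 of 16 overlapped a RIP-1 non-exon peak, against 3.63%, which allows up to 18.8%. RIP-1 had 0 non-exon peaks in the span to set against the 18.1% of its whole list that overlapped RIP-2. With so few peaks a share near that of the whole lists was not distinguishable from 0. Overlaps across the kinds of list, 0 of 3, 0 of 7 and 0 of 16, stand beside 0.173%, 0.214% and 0.0142% of the whole lists.

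Distances between the peaks of the 2 experiments were not computed over the whole lists, so whether those of the span are unusual is not known. Within the span, no RIP-1 peak came closer than 116 kb to a RIP-2 peak, a distance set by the 3 RIP-1 peaks at its downstream end. With RIP-1 peaks outside the span counted too, the one closest to a RIP-2 peak of the span was an mRNA-list peak that ended at 140086239, before the span, 88.6 kb from the first RIP-2 peak of the alpha part. For the 3 beta-part segments of RIP-2 the nearest RIP-1 mRNA-list peak was 276 to 375 kb away. For the 3 RIP-1 peaks the nearest RIP-2 peaks of either list lay after the end of the span, the closest 22.3 kb from the third.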

How the data were processed

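Per the submitters' processing notes, cutadapt 1.9.3, HISAT2 2.0.4 and the build hg19 were used. Peaks were called with MACS, per the prefix of the peak names, once per experiment; version, settings and control are not stated in the sources at hand. The deposited lists hold a score per peak, and the non-exon lists also a length, a fold enrichment (ratio) and an FDR in percent, all by the authors, with meanings taken from values and column order, since there are no headers. Depth is unknown.

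Peaks overlapping the span were taken with Python 3.11.15 and pandas 2.3.3. Non-exon positions count from 1; the base of the mRNA lists is unknown, so their edges carry 1 bp of doubt, and their length is end minus start. Densities divide by 3009 Mb, the chromosomes from first to last peak. Wilson intervals used scipy 1.17.1. The overlap code was tested on simulated intervals. No test was run, since each list is 1 call. Members, parts and comparisons were chosen with earlier results of these data known. All mRNA-list peaks, the 5 non-exon peaks with the highest fold enrichment and the widest peaks are named by rule; other non-exon peaks were named after their values were seen. The settings varied were membership, span edges, score, overlap, strand and denominator.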

Additional observations from a re-analysis of the deposited data

How the results depend on the processing

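Of 38 alternative values, 34 stayed within 1.5 times the main value or within its Wilson interval. Some of the 34 were fixed in advance, such as subsets of the 0 RIP-1 non-exon peaks and plus-strand shares by covered bases. The RIP-1 mRNA-list share was judged against a wide interval, 43.9 to 100. The 34 are therefore no measure of stability. The upper 50% by score left 1 of 3 RIP-1 and 4 of 7 RIP-2 mRNA-list peaks, fewer by construction. Widening the span by 50 kb on each side brought in 1 RIP-1 non-exon peak. It also raised the RIP-2 non-exon count from 16 to 24, at the limit of 1.5 times, so that count depends on the edges chosen. An FDR under 100%, an alternative chosen after seeing the data like those on the mRNA-list share of the call, left 6 of 16 RIP-2 non-exon peaks. Those 6 had the lowest scores of the 16. Sharing between the experiments was 0 under every overlap setting run, and with 3 and 0 RIP-1 peaks these zeros show no stability. No paired analysis was possible because the lists hold no values per library, and for the same reason no replicate could be left out. Unknown depth limits every comparison of RIP-1 with RIP-2.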
